A study of Arabidopsis thaliana with 57 samples.

Results

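Young flowers of Arabidopsis thaliana Col plants carrying the AGP//AGe cassette were profiled by strand-specific RNA sequencing in 9 libraries, out of 57 libraries in the whole series. They were chosen by their labels as all batch A libraries with the genotype Col_AGP//AGe, and they comprised 3 libraries from Wt flowers, 3 from rMf flowers and 3 from sMf flowers. The reference group was Col plants carrying the Ctr//AGe cassette with Wt flowers, also 3 libraries of batch A. Col is the Columbia wild type, and both cassettes carry AGe by their names. The labels do not spell out AGP, Ctr, rMf or sMf, and the names are used as given. Each library was made from RNA combined over several transformed lines that shared a flower phenotype. The phenotype therefore defined which lines were pooled, and a library says nothing about single lines. Nothing in the labels says that libraries with the same replicate number belong together.

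AGAMOUS (AG, AT4G18960) encodes the MADS-domain transcription factor that specifies stamens and carpels and ends the growth of the floral meristem. Loss of AG function turns stamens into petals and replaces the carpels with further flowers. Much of the control of AG lies in its large second intron, the enhancer called AGe here, where the floral regulators LEAFY and WUSCHEL bind. In plants, noncoding RNA from a regulatory region can feed RNA-directed DNA methylation, in which small RNAs guide methylation to the matching DNA and silence it. The libraries were made to profile such noncoding RNA, and the question taken up here was whether RNA from the promoter region went along with the enhancer sense level or with the flower phenotype.

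Reads were counted on each strand over 2 regions of chromosome 4, in the coordinates of TAIR10. AG is on the plus strand at chr4:10382856-10388539. The enhancer region lies at chr4:10384147-10387145, is 2999 bp long and has 28.6% GC. It fills an entire intron in 1 of the 4 annotated AG transcripts, while an annotated 90 bp AG exon at chr4:10386982-10387071 falls inside it. The promoter region lies at chr4:10380701-10382800, is 2100 bp long, is intergenic, also has 28.6% GC and is separated from the annotated start of AG by 55 bp. The column header names this second region as AG promoter or M2 without saying which name applies to which library. Sense means the plus strand, that of AG, at this locus. Sense reads over the enhancer can come from AG RNA that still holds its intron, and also from spliced AG RNA that includes the 90 bp exon. The counts do not tell these sources apart. These counts do not separate a cassette copy of a region from the resident gene, since reads of both map to 1 place. The labelled tissue could not be checked against markers, since AG is the only gene in the table.

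The following stretches of the TAIR10.1 plus strand, whose nuclear coordinates are those of TAIR10, show what the enhancer counts cover. The ends of the enhancer region are given first because they show that it starts and stops at splice sites, with the donor GT and the acceptor AG in capitals.
AGe start, chr4:10384147-10384176: GTttcttcttcttctcgtgctctgttctta
AGe end, chr4:10387116-10387145: ttattaattcctttaaaaaaattattgcAG
The next stretches hold the known regulator motifs inside the enhancer. CCAATGT is the core of LEAFY sites, TTAATGG is the core of WUSCHEL sites, and CCAATCA is a conserved repeat of this intron. The motifs are in capitals.
AGe upstream CCAATGT, chr4:10386030-10386076: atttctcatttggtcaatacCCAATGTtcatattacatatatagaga
AGe cluster, chr4:10386636-10386784: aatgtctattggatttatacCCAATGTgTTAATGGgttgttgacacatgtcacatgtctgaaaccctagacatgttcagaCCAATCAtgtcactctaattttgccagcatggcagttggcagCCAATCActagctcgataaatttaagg
In the cluster, CCAATGT and TTAATGG were 1 bp apart, and the 4 motif matches spanned 109 bp.
The promoter region held a single match to any of the 3 motifs, a TTAATGG on the minus strand, shown on the plus strand in capitals.
Promoter region, chr4:10381974-10382020: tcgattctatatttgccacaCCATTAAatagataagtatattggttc

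Both strands were searched, and no match overlapped another. The enhancer held 2 matches to CCAATGT, 1 to TTAATGG and 2 to CCAATCA. Of 39646 windows of the same length over the nuclear genome, 31.6% held at least 1 CCAATGT, 40.6% at least 1 TTAATGG and 40.5% at least 1 CCAATCA. At least 2 matches were held by 6.13% of these windows for CCAATGT and by 10.3% for CCAATCA. For the length of the promoter region, 30.6% of 56631 windows held a TTAATGG. These matches describe the counted regions, and the absence of a motif says only that these letters are not in the window.

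Uniquely mapped reads were 23958021 to 41517984 per library over the 12 libraries. Each level, written RPM, is the read count of a region and strand per 1000000 uniquely mapped reads of its library. Multiply mapped reads were 10.9% to 12.1% of mapped reads in 8 of the 9 AGP//AGe libraries and 15.2% in sMf replicate 3, against 11.1% to 15.2% with Ctr//AGe. The deposited read totals of sMf replicates 2 and 3 did not match their libraries. The mapped reads were 88.6% of the total reads in replicate 2 and 102% in replicate 3, whereas the other library's mapped reads gave 94.5% and 95.3%, the percentages deposited for replicates 2 and 3. The sMf differences by edgeR are therefore also given without both of these libraries, which leaves sMf replicate 1 as the only sMf library, assumed to vary like the other groups. The exact tests and correlations were not rerun that way. Groups were compared by the quasi-likelihood test of edgeR, with p-values adjusted after Benjamini and Hochberg over the 4 features (2 regions by 2 strands), and a difference is called at an adjusted p under 0.05. The fit shared its estimate of spread over all 57 libraries. The p-values refer to the variation between libraries of the same group, shared over all groups. These include Col and mutants without a cassette and the lines M317 and M318. The sample titles do not say whether replicates held different pools of lines.

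Sense RNA over the enhancer was lowest in rMf flowers. The 3 rMf libraries had 325, 288 and 235 AGe sense reads, which are 8.88, 6.94 and 7.94 RPM in replicates 1 to 3. The Wt libraries had 1201 reads between them, at 11.5, 10.2 and 13.8 RPM. The sMf libraries had 544, 430 and 428 reads, or 16.7, 12.7 and 12.5 RPM. Every rMf library was below every Wt and every sMf library, while the Wt and sMf libraries overlapped.

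The mean AGe sense level was 7.92 ± 0.972 RPM in rMf, 11.8 ± 1.82 RPM in Wt and 14.0 ± 2.34 RPM in sMf flowers (SD, n = 3 each). AGe sense RNA was 1.76-fold higher in sMf than in rMf flowers (log2 0.82 ± 0.19 SE, 95% interval 0.43 to 1.20, adjusted p = 0.000405). It was 1.49-fold lower in rMf than in Wt flowers (log2 -0.58 ± 0.19 SE, 95% interval -0.96 to -0.19, adjusted p = 0.0168). Between sMf and Wt flowers no difference was called (log2 0.24 ± 0.19 SE, 95% interval -0.14 to 0.62, adjusted p = 0.428), nor without sMf replicates 2 and 3 (log2 0.50, adjusted p = 0.263). The joint test of the 3 phenotypes called AGe sense RNA (F = 9.38, adjusted p = 0.00163) and none of the other 3 features, so that 25.0% of the 4 features were called in the joint test, in rMf against Wt and in sMf against rMf, and 0% in sMf against Wt.

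The sMf to rMf difference was still called with any single library left out and with sMf replicates 2 and 3 both left out (log2 1.07, adjusted p = 0.00055), but not when the spread came from these groups alone (adjusted p = 0.0785). Leaving out rMf replicate 2 ended the rMf to Wt call (log2 -0.49, adjusted p = 0.122), as did leaving out Wt replicate 3 (log2 -0.45, adjusted p = 0.149) and taking the spread from rMf and Wt alone (adjusted p = 0.259). An exact permutation test over the 1680 assignments of the 9 libraries to phenotypes, which borrows no spread from other groups, gave p = 0.0143 for AGe sense RNA and 0.1 after adjustment over 7 measures. The smallest p this test can give is 0.00357.

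**Figure D1:**
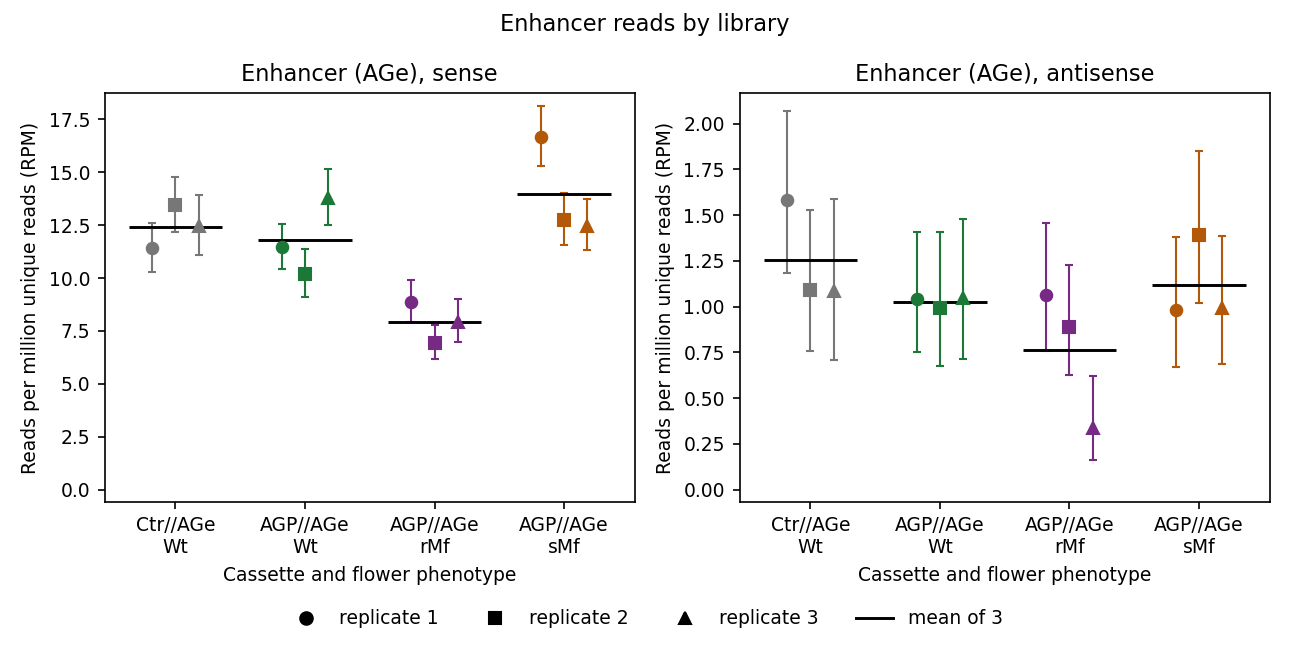
Enhancer (AGe) RPM in each of the 12 batch A libraries, sense and antisense in separate panels with separate axes. Points are libraries, their error bars are exact 95% Poisson intervals that cover counting error only, and the black line is the mean of 3 libraries; the rMf sense values, 6.94 to 8.88 RPM, lie below all others.

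Antisense RNA over the enhancer was sparser and did not separate the phenotypes. The Wt libraries had 42, 31 and 32 AGe antisense reads, or 1.04, 0.994 and 1.05 RPM. The rMf libraries had 39, 37 and 10 reads, or 1.07, 0.891 and 0.338 RPM. The sMf libraries had 32, 47 and 34 reads, or 0.980, 1.39 and 0.991 RPM. The values of the 3 phenotypes overlapped, and rMf replicate 3 was the lowest of all 9.

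The mean AGe antisense level was 1.03 ± 0.0296 RPM in Wt, 0.765 ± 0.380 RPM in rMf and 1.12 ± 0.235 RPM in sMf flowers (SD, n = 3 each). The sMf to rMf difference was log2 0.52 with a 95% interval of -0.17 to 1.20 (adjusted p = 0.179), and log2 0.32 without sMf replicates 2 and 3 (adjusted p = 0.661). The rMf to Wt difference was log2 -0.39 with an interval of -1.08 to 0.30 (adjusted p = 0.414). The sMf to Wt difference was log2 0.12 with an interval of -0.54 to 0.79 (adjusted p = 0.709), and log2 -0.070 without those 2 libraries (adjusted p = 0.884). Antisense reads were 4.08% to 11.4% of the enhancer reads of a library, and the mean share was 8.09% in Wt, 8.73% in rMf and 7.59% in sMf flowers (exact permutation p = 0.861).

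Sense RNA over the promoter region was sparse and uneven between libraries of the same phenotype. The Wt libraries had 9, 1 and 14 promoter sense reads, or 0.223, 0.0321 and 0.458 RPM. The rMf libraries had 5, 0 and 9 reads, or 0.137, 0 and 0.304 RPM, where the 0 allows up to 0.0723 RPM (3 counts). The sMf libraries had 6, 30 and 5 reads, or 0.184, 0.889 and 0.146 RPM. The highest library, sMf replicate 2, held 30 of the 79 promoter sense reads of all 9, while the other sMf libraries lay within the range of the Wt and rMf libraries.

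The mean promoter sense level was 0.238 ± 0.214 RPM in Wt, 0.147 ± 0.152 RPM in rMf and 0.406 ± 0.418 RPM in sMf flowers (SD, n = 3 each), so the SD was about as large as the mean. No phenotype difference was called. The sMf to rMf difference was log2 1.59 with a 95% interval of 0.10 to 3.08 (edgeR quasi-likelihood test, unadjusted p 0.0373, adjusted p = 0.0747). It was log2 0.31 without sMf replicate 2 (adjusted p = 0.774), log2 0.46 without sMf replicates 2 and 3 (adjusted p = 0.661) and log2 0.92 without rMf replicate 2 (adjusted p = 0.268). It was called without rMf replicate 3 (log2 2.59, adjusted p = 0.0145), without sMf replicate 1 (log2 1.93, adjusted p = 0.0301) and without sMf replicate 3 (log2 2.00, adjusted p = 0.0203). Its size and its call thus moved with which single library was left out. The sMf to Wt difference was log2 0.78 (interval -0.57 to 2.12, adjusted p = 0.428) with log2 -0.51 without sMf replicate 2 and -0.35 without sMf replicates 2 and 3, and the rMf to Wt difference was log2 -0.81 (interval -2.45 to 0.83, adjusted p = 0.414).

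Antisense RNA over the promoter region was more even. The Wt libraries had 10, 1 and 4 promoter antisense reads, or 0.248, 0.0321 and 0.131 RPM. The rMf libraries had 7, 11 and 4 reads, or 0.191, 0.265 and 0.135 RPM. The sMf libraries had 3, 10 and 9 reads, or 0.0919, 0.296 and 0.262 RPM. All 9 libraries had at least 1 promoter antisense read, and the 3 phenotypes overlapped.

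The mean promoter antisense level was 0.137 ± 0.108 RPM in Wt, 0.197 ± 0.0651 RPM in rMf and 0.217 ± 0.110 RPM in sMf flowers (SD, n = 3 each). The sMf to rMf difference was log2 0.10 with a 95% interval of -0.97 to 1.17 (adjusted p = 0.847). The rMf to Wt difference was log2 0.47 (interval -0.68 to 1.62, adjusted p = 0.414) and the sMf to Wt difference was log2 0.57 (interval -0.58 to 1.73, adjusted p = 0.428). Without sMf replicates 2 and 3, the values were log2 -1.11 for sMf against rMf (adjusted p = 0.478) and log2 -0.64 for sMf against Wt (adjusted p = 0.884). These intervals leave room for differences of about the size seen on the enhancer sense strand, so a change of that size was not detectable with these reads and libraries.

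The unevenness was described by the variance of the counts over their mean within phenotypes, allowing for library size. This ratio is 1 for counting error alone. It was 8.88 for promoter sense and 1.79 for promoter antisense reads, against 8.82 for AGe sense and 2.49 for AGe antisense reads. Promoter sense reads, with 79 reads in all, thus had a ratio as high as that of the enhancer sense strand, which had at least 235 reads in every library. The same ratio at far fewer reads means a larger spread relative to the mean, so promoter sense reads were relatively more uneven. The 2 promoter strands were also not present in a fixed proportion. Antisense reads made up 100% of the 11 promoter reads in rMf replicate 2 and 22.2% of the 18 in Wt replicate 3. Summed over libraries, the antisense share was 61.1% of 36 reads in rMf (Wilson 95% interval 44.9% to 75.2%), 38.5% of 39 reads in Wt (24.9% to 54.1%) and 34.9% of 63 reads in sMf flowers (24.3% to 47.2%). These intervals cover counting error only, and over libraries the share did not separate the phenotypes (exact permutation p = 0.514).

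**Figure D2:**
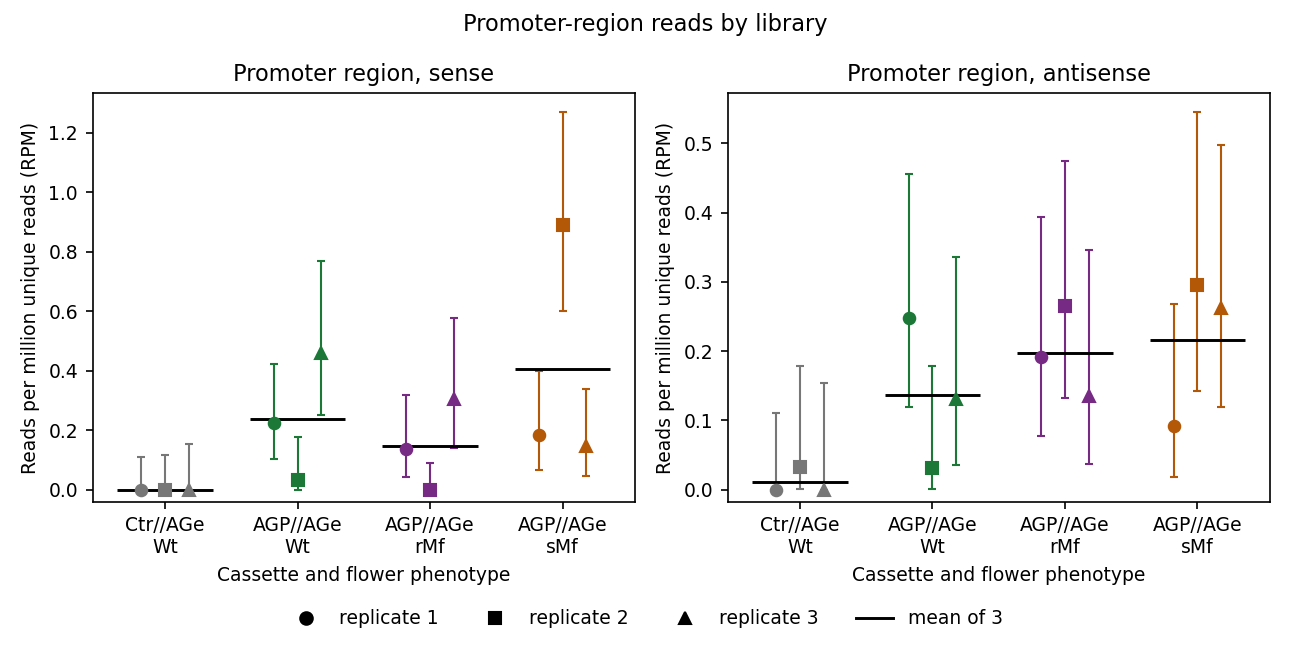
Promoter region RPM in each of the 12 batch A libraries, sense and antisense in separate panels. Points are libraries, error bars are exact 95% Poisson intervals that cover counting error only, and the black line is the mean of 3 libraries; sMf replicate 2 stands at 0.889 RPM on the sense strand, and the 3 Ctr//AGe libraries hold a single read between them.

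**Figure D3:**
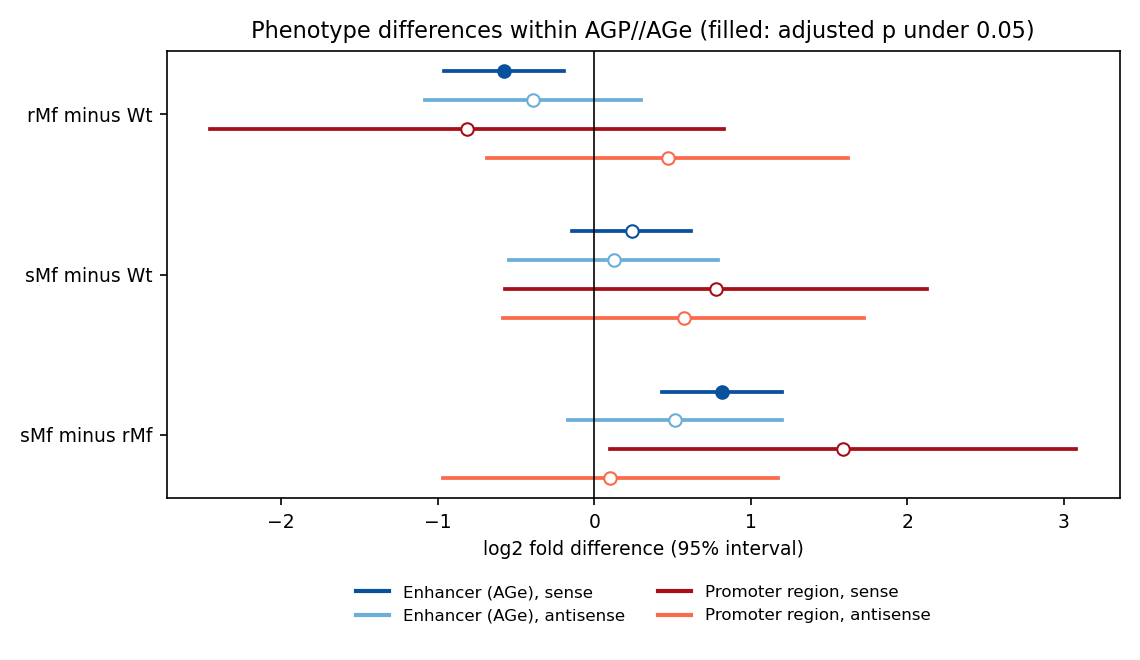
Log2 differences between the phenotypes of AGP//AGe for the 4 features, from edgeR's quasi-likelihood fit. Markers are estimates and bars their 95% intervals, a filled marker has an adjusted p under 0.05, and only the enhancer sense strand has filled markers, for rMf against Wt (-0.58) and sMf against rMf (0.82).

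Compared per length, the promoter region gave a small part of what the enhancer gave on the sense strand. Promoter sense reads per kb were 3.21 ± 3.11 for every 100 AGe sense reads per kb (SD, n = 9), with a range of 0 in rMf replicate 2 to 9.96 in sMf replicate 2. Promoter antisense reads per kb were 2.55 ± 1.53 on the same scale, with a range of 0.449 to 5.45. Against AGe antisense reads per kb, promoter antisense reads per kb were 29.2% ± 16.0 (SD, n = 9). On the antisense strand the promoter region thus stood closer to the enhancer than on the sense strand.

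Promoter-region RNA was higher with AGP//AGe than with Ctr//AGe. The header calls the counted region AGp, close to the cassette name AGP, which the labels do not spell out. Whether the cassette carries this region was not tested. These reads may thus come from a cassette copy or from the resident gene. The 9 AGP//AGe libraries held 79 promoter sense and 59 promoter antisense reads, and the 3 Ctr//AGe libraries held 0 sense reads and 1 antisense read, in replicate 2. The mean level was 0.264 ± 0.272 RPM sense and 0.184 ± 0.0910 RPM antisense with AGP//AGe (SD, n = 9). The remaining 8 libraries of batch A (ARE//AGe and the lines M317 and M318) had 0 promoter reads. Promoter-region RNA was not particular to AGP//AGe in the series. In batch B, Wt flowers of the mutants with ARE//AGe had mean promoter levels of 0.247 RPM sense and 0.279 RPM antisense in hdp1-1 (n = 3), 0.420 and 0.377 RPM in hdp2-1 (n = 3), and 0.227 and 0.340 RPM in suvh1-2 (n = 2). Wt flowers of suvh1-2 without a cassette had 0.219 and 0.398 RPM (n = 3). Other batch B Wt flowers had little or none (n = 3 each). Levels were 0 and 0 RPM in Col and in hdp2-1 without a cassette, 0 and 0.0229 RPM in hdp1-1 without a cassette, and 0.0205 and 0.0427 RPM in Col with ARE//AGe. These levels are given side by side without a test, since the batch differs too.

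Pooled over phenotypes, promoter sense RNA was at least 7.79-fold higher with AGP//AGe, taking 3 counts over the Ctr//AGe group as the floor, and the test called it (adjusted p = 0.00192). By summed reads, promoter antisense RNA was 16.8-fold higher, with a counting interval of 2.91 to 676 that is wide because it rests on 1 control read. The edgeR estimate was 12.4-fold (adjusted p = 0.00108). The bound on the sense strand was 5.48-fold without sMf replicate 2, 5.65-fold without sMf replicates 2 and 3 (adjusted p = 0.00499), 4.84-fold without Ctr//AGe replicate 1 and 5.05-fold without Ctr//AGe replicate 2. The antisense ratio was 14.6 without sMf replicates 2 and 3 (adjusted p = 0.00648) and 10.5 without Ctr//AGe replicate 1. Without Ctr//AGe replicate 2 the control group had no antisense read, and the bound for promoter antisense RNA was 3.52-fold. Both strands stayed called with any single library left out, and these were 50.0% of the 4 features. The sense call did not hold when the spread came from batch A alone (adjusted p = 0.0706) or from the 4 groups compared (adjusted p = 0.0603).

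Both promoter strands were called higher in each phenotype taken alone, and each value leaned on single libraries. Promoter sense RNA was at least 7.03-fold higher than with Ctr//AGe in Wt flowers, at least 4.34-fold in rMf and at least 12.0-fold in sMf flowers, with adjusted p-values of 0.00712, 0.0200 and 0.000676. By summed reads, promoter antisense RNA was 13.0-fold, 18.1-fold and 19.3-fold higher in the same order, with counting intervals whose lower ends were 2.00, 2.93 and 3.13. The edgeR estimates were 9.79-fold, 13.55-fold and 14.5-fold, with adjusted p-values of 0.00712, 0.00197 and 0.000677. The sense bound fell to 3.77-fold in Wt flowers without Wt replicate 3, to 2.02-fold in rMf flowers without rMf replicate 3, and to 4.86-fold in sMf flowers without sMf replicate 2, which held 30 of the 41 reads. Without Ctr//AGe replicate 1 the 3 bounds were 4.37-fold, 2.70-fold and 7.46-fold, and without Ctr//AGe replicate 2 they were 4.56-fold, 2.81-fold and 7.78-fold. The Wt antisense ratio was 7.18 without Wt replicate 1, with a counting interval of 0.803 to 339. Without sMf replicates 2 and 3 the sMf sense bound was 5.42-fold (adjusted p = 0.0345), and the antisense ratio was 8.14 with a counting interval of 0.653 to 427. Without Ctr//AGe replicate 1 the antisense ratios were 8.10, 11.3 and 12.0. Without Ctr//AGe replicate 2 mean antisense RNA was 2.63-fold, 3.78-fold and 4.15-fold the floor. All of these share the same 3 control libraries, and of the 4 features 50.0% were called in Wt, 100% in rMf and 50.0% in sMf flowers. The rMf sense call was lost without rMf replicate 3 (adjusted p = 0.107) or without Ctr//AGe replicate 1 (adjusted p = 0.0535). The Wt antisense call was lost without Wt replicate 1 (adjusted p = 0.112), and the sMf antisense call without sMf replicates 2 and 3 (adjusted p = 0.155). With the spread of batch A alone, neither strand was called in Wt flowers (adjusted p = 0.0968 sense and 0.0589 antisense), nor was the sense strand in rMf flowers (adjusted p = 0.110).

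Exact permutation tests over the 220 splits of these 12 libraries were less firm. Their p was 0.0136 for promoter antisense, 0.127 for promoter sense and 0.0455 for both strands together, and 0.0818, 0.255 and 0.136 after adjustment over 6 measures. On log2(RPM + 0.1), adjusted exact permutation p-values were 0.0273 for promoter antisense and 0.0273 for both strands. The smallest p this test can give is 0.00455. Mean promoter levels over both strands were 0.447 ± 0.314 RPM (SD, n = 9) with AGP//AGe, between 0.0641 RPM in Wt replicate 2 and 1.18 RPM in sMf replicate 2, the former from 2 reads, which is under the floor of 3 counts. That library could not be told apart from Ctr//AGe replicate 2, with 1 read and 0.0321 RPM, at this depth.

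At the enhancer, the pooled AGP//AGe libraries did not differ detectably from Ctr//AGe. The Ctr//AGe libraries had 382, 418 and 298 AGe sense reads, or 11.4, 13.4 and 12.4 RPM, a level between those of Wt and sMf flowers with AGP//AGe. AGe sense RNA was 11.2 ± 3.08 RPM with AGP//AGe (SD, n = 9) and 12.4 ± 1.01 RPM with Ctr//AGe (SD, n = 3), a difference of log2 -0.18 (interval -0.49 to 0.12, adjusted p = 0.236). The Ctr//AGe libraries had 53, 34 and 26 AGe antisense reads, or 1.58, 1.09 and 1.09 RPM, and the pooled antisense difference was log2 -0.38 (interval -0.93 to 0.16, adjusted p = 0.214). Taken alone, rMf flowers were 1.57-fold below Ctr//AGe in AGe sense RNA (log2 -0.65 ± 0.19 SE, adjusted p = 0.00296), a call kept with any single library left out and with the spread of these groups alone. AGe antisense RNA in rMf flowers was called at the edge of the threshold (log2 -0.69 ± 0.34 SE, adjusted p = 0.0485). It was log2 -0.37 without rMf replicate 3 (adjusted p = 0.286) and log2 -0.47 when Ctr//AGe replicate 1 was left out (adjusted p = 0.227), and then not called. Neither enhancer strand was called for Wt (sense log2 -0.07, interval -0.45 to 0.31) or sMf flowers (sense log2 0.17, interval -0.21 to 0.55). Without sMf replicates 2 and 3, AGe sense was log2 -0.10 pooled (adjusted p = 0.559) and 0.42 in sMf flowers (adjusted p = 0.155), and AGe antisense was log2 -0.45 pooled (adjusted p = 0.175) and -0.37 in sMf flowers (adjusted p = 0.446).

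Across the 9 libraries, neither promoter strand tracked the enhancer sense level beyond what the permutation test allows. For promoter sense against AGe sense RPM, Pearson's r was 0.357 (exact permutation p = 0.354) and Spearman's rho was 0.55 (exact permutation p = 0.133). Without the 2 libraries farthest from the median AGe sense level, sMf replicate 1 and rMf replicate 2, r was 0.470 (exact permutation p = 0.300). For deviations from the phenotype means, r was 0.0357, a description without a test. The positive value over all libraries was thus near 0 within phenotypes.

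For promoter antisense against AGe sense RPM, r was -0.179 (exact permutation p = 0.641) and rho was -0.217 (exact permutation p = 0.581). Without the same 2 libraries r was 0.376, and without sMf replicate 1 alone it was 0.102, so its sign rested on these libraries. The deviations from the phenotype means gave r = -0.437. For promoter antisense against promoter sense RPM, r was 0.335 (exact permutation p = 0.406) and rho was 0.117 (exact permutation p = 0.776). Without sMf replicate 2 and Wt replicate 3, the 2 libraries farthest from the median promoter sense level, r was -0.0138.

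In all, 9 relations were computed, and the lowest adjusted p was 0.342. It belonged to the rho of promoter sense with the percent of multiply mapped reads (rho -0.667, exact permutation p = 0.0589, r -0.330) and to that of promoter antisense with uniquely mapped reads (rho 0.633, exact permutation p = 0.0760, r 0.646). With the 2 libraries of the most extreme multiply mapped percent left out, sMf replicates 3 and 1, the first relation had r = -0.831 (exact permutation p = 0.0214, not adjusted). The highest percent, 15.2%, may belong to sMf replicate 2 instead of 3, since the deposited totals of these libraries did not match. No relation was computed with their percents exchanged, so this relation is uncertain. With rMf replicate 2 and Wt replicate 1 left out, the second had r = 0.563 (exact permutation p = 0.187). The part of read mapping and depth in the promoter values was not tested. AGe antisense against AGe sense RPM had r = 0.458 (exact permutation p = 0.205), and the deviations from the phenotype means gave -0.0983.

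**Figure D4:**
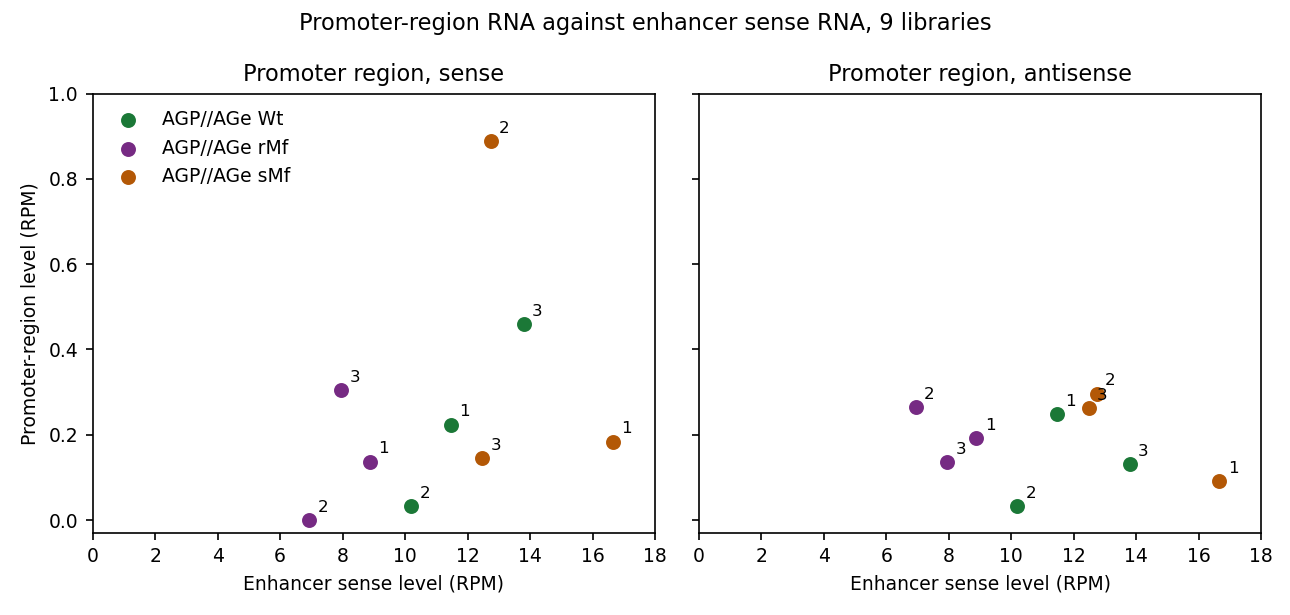
Promoter region RPM of each strand against AGe sense RPM for the 9 AGP//AGe libraries, coloured by phenotype. Each point is a library; Pearson's r is 0.357 for the sense and -0.179 for the antisense strand, and the library with the highest promoter sense level, sMf replicate 2, is not the library with the highest AGe sense level.

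Set beside the ARE//AGe cassette in Col Wt flowers of batch A (3 libraries), AGP//AGe Wt flowers differed in both the enhancer antisense strand and the promoter region. AGe antisense RNA was 1.03 ± 0.0296 RPM with AGP//AGe and 12.8 ± 0.719 RPM with ARE//AGe, a 12.4-fold lower level (log2 -3.63 ± 0.31 SE, adjusted p = 1.36e-14). AGe sense RNA was 11.8 ± 1.82 against 14.5 ± 0.640 RPM and was not called (log2 -0.30, interval -0.68 to 0.08, adjusted p = 0.124). The 3 ARE//AGe libraries had no promoter read on either strand, and both strands were called higher with AGP//AGe (adjusted p = 0.00146 sense and 0.000471 antisense), which with the enhancer antisense strand makes 75.0% of the 4 features. With the spread of these 6 libraries alone the promoter strands were not called (adjusted p = 0.0586 for each).

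The same phenotype names were scored in the mutants hdp1-1 and hdp2-1 carrying ARE//AGe in batch B, which lack members of a complex known to counteract silencing, and in suvh1-2 with ARE//AGe, which lacks a reader of DNA methylation and had no rMf group. In hdp2-1 with ARE//AGe, AGe sense RNA was 8.78 ± 0.480 RPM in Wt, 9.39 ± 2.56 RPM in rMf and 8.79 ± 1.14 RPM in sMf flowers (SD, n = 3 each). The sMf to rMf difference was larger in AGP//AGe than in hdp2-1 with ARE//AGe by log2 0.92 ± 0.27 SE (95% interval 0.37 to 1.46, adjusted p = 0.00592), and this was called with any single library left out (log2 0.76 to 1.13). The spread of these groups alone did not give a call (adjusted p = 0.146). Without sMf replicates 2 and 3 it was log2 1.17 (adjusted p = 0.00310). The 3 rMf libraries of hdp2-1 ranged from 6.48 to 11.3 RPM and overlapped those of AGP//AGe, which are of the other batch. Col Wt flowers with ARE//AGe had 14.5 RPM in batch A and 5.31 RPM in batch B (n = 3 each). Overlap of levels between the batches therefore says little.

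In hdp1-1 with ARE//AGe, AGe sense RNA was 10.4 ± 2.65 RPM in Wt (n = 3), 7.50 ± 0.185 RPM in rMf (n = 2) and 8.65 ± 0.599 RPM in sMf flowers (n = 3), again with the lowest mean in rMf. The rMf to Wt difference in AGP//AGe differed from that in hdp1-1 by log2 -0.10 (interval -0.68 to 0.48, adjusted p = 0.884), and the sMf to rMf difference by log2 0.61 (interval 0.03 to 1.19, adjusted p = 0.0879). The rMf to Wt difference in AGP//AGe differed from that in hdp2-1 by log2 -0.68 (interval -1.22 to -0.13, adjusted p = 0.0638). In suvh1-2 with ARE//AGe, sMf flowers had 10.4 ± 1.38 RPM (n = 3) and Wt flowers 6.95 ± 0.652 RPM (n = 2), and the sMf to Wt difference of AGP//AGe differed from it by log2 -0.34 (interval -0.92 to 0.24, adjusted p = 0.481). Without sMf replicates 2 and 3, the sMf to rMf difference of AGP//AGe differed from that of hdp1-1 by log2 0.87 (adjusted p = 0.0604), and the sMf to Wt difference from that of suvh1-2 by log2 -0.085 (adjusted p = 0.807). Of 7 such differences of differences over 4 features each, only the sMf to rMf difference of AGe sense RNA against hdp2-1 was called. The cassette, the genotype and the batch differ together between these sets and cannot be told apart.

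**Figure D5:**
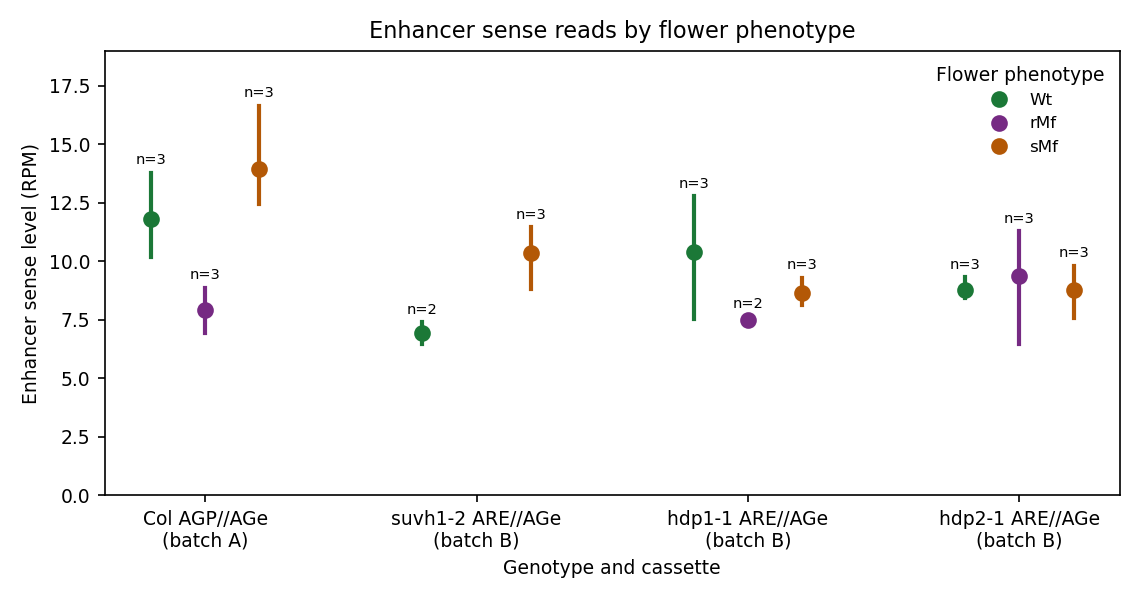
AGe sense RPM by flower phenotype for AGP//AGe (batch A) and for the 3 mutants with ARE//AGe (batch B). Levels are comparable within a set, not between the batches. Dots are means, bars run from the lowest to the highest library and the number of libraries is printed; rMf is the lowest of the phenotypes in AGP//AGe (7.92 RPM) and in hdp1-1 (7.50 RPM) but not in hdp2-1 (9.39 RPM).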

How the data were processed

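Stranded total RNA libraries of young flowers, depleted of ribosomal RNA per the labels' protocols, were counted by the authors over 2 regions. Per the file headers, the deposited table holds raw read counts per strand and region, read totals, the percent of mapped reads and RPM (normalized reads). Per the submitters' processing notes, HISAT2, HTSeq 0.13.5 and the build TAIR10 were used; no source used here gives the settings. The deposited RPM were reproduced, to a gap of 0.0, as reads per 1000000 uniquely mapped reads; the deposited percent served only to check totals.

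The raw counts, with uniquely mapped reads as library sizes, were fitted with edgeR 4.0.16 (R 4.3.3, quasi-likelihood, common dispersion 0.0364) over 57 libraries in 20 groups, with 37 residual degrees of freedom. The fit was also run on data simulated at this common dispersion for all 4 features. Promoter sense reads varied more than that, so the simulation does not bear on the promoter calls. Differences of differences were contrasts of 4 groups. Exact permutation tests enumerated all assignments, splits or pairings with numpy 2.4.6 and were two-sided, and those of the phenotypes used the F statistic. Ranks and counting intervals came from scipy 1.17.1. All 4 features are named. The libraries, features and comparisons were chosen with earlier results of these data known. Alternatives were another prior count (1), a fit to fewer groups, leaving out each replicate, blocking on the replicate number, robust moderation, another library size, a filter at a mean of 10 counts, adjustment over all comparisons, DESeq2 1.42.0, and limma 3.58.1 on log2(RPM + 0.1). Added after seeing the data were leaving out sMf replicates 2 and 3 together, and the library with the most promoter reads of each phenotype. Precision is limited by 0 to 30 reads per promoter strand and library and by the spread between libraries. For a 0, 3 counts were taken as the floor. Counting intervals and floors cover counting error only, since PCR copies carry no molecular identifier. No pair of the 12 libraries had the same 4 counts.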

Additional observations from a re-analysis of the deposited data

Results flagged for a closer look

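In 3 of 8 measures over the 9 AGP//AGe libraries, a library stood apart by the gap to their nearest neighbour relative to the range, a test that chance passes in about 1 of 20 sets. AGe antisense RNA was lowest in rMf replicate 3, at 0.338 RPM from 10 reads, with 0.891 RPM in the nearest library. Promoter RNA of both strands together was highest in sMf replicate 2, at 1.18 RPM, with 0.589 RPM in the nearest library. Multiply mapped reads were highest in sMf replicate 3, at 15.2% of mapped reads, with 12.1% in the nearest library, while Ctr//AGe replicate 1 also had 15.2%. The sMf value may belong to sMf replicate 2 instead, since the deposited read totals of sMf replicates 2 and 3 did not match. Each set of 9 spans the 3 phenotypes.

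Between genotypes, the sMf to rMf difference of AGe sense RNA was larger in AGP//AGe than in hdp2-1 with ARE//AGe by 0.92 on the log2 scale (adjusted p = 0.00592 by edgeR's quasi-likelihood test of the difference itself). All 3 sMf libraries of AGP//AGe were above all 3 of its rMf libraries, while the hdp2-1 groups overlapped.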

How the results depend on the processing

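The promoter comparisons rest on 0 to 30 reads per library and strand, with spread between libraries beyond counting error. The parts of depth and of that spread were not tested. The calls rest on a spread shared by all groups. With the fit restricted to the groups compared, the number of called features went from 1 to 0 for rMf against Wt, sMf against rMf, the joint test and the sMf to rMf difference against hdp2-1, from 2 to 1 for the pooled and sMf comparisons with Ctr//AGe, from 2 to 0 for Wt and from 4 to 2 for rMf against Ctr//AGe, and from 3 to 1 for Wt against ARE//AGe. With only batch A it was 1 for pooled, 0 for Wt and 2 for rMf flowers against Ctr//AGe. With features of a mean of at least 10 counts, which drops the promoter region, it was 0 for pooled, Wt and sMf and 2 for rMf flowers against Ctr//AGe, 1 for Wt against ARE//AGe, and against hdp2-1 it was 1 for rMf to Wt (from 0) and 2 for sMf to rMf. DESeq2 also called 1 for rMf to Wt against hdp2-1. Adjustment over all comparisons left 2 for rMf against Ctr//AGe. Without the library of most promoter reads per phenotype it was 0 for rMf against Wt, and 1 for Wt and 2 for rMf against Ctr//AGe; without sMf replicates 2 and 3 it was 1 for sMf against Ctr//AGe. The pooled exact test called 2 measures on log2(RPM + 0.1), from 0. The cause was not tested beyond what each setting itself removes.

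With each replicate left out in turn, the count was 0 to 1 for rMf against Wt, 1 to 2 for sMf against rMf, 1 to 2 for Wt and 2 to 4 for rMf against Ctr//AGe, 0 to 1 for rMf to Wt against hdp1-1 and hdp2-1, 1 to 2 for sMf to rMf against hdp2-1, 0 for the exact tests of phenotype and 0 to 1 for those of pooled libraries; the other counts did not move. The deviations of same-numbered libraries had r from -0.895 to 0.557 between the 4 groups. This is a description without a test, and it can neither show nor exclude a pairing. The replicate block gave the same counts of calls as without it, for example 1 for rMf against Wt (AGe sense log2 -0.57) and 2 for the pooled comparison.

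Uncalled values changed sign in 20 cases. With each replicate left out in turn, sMf against Wt ran from log2 -0.062 (without sMf replicate 2) to 0.21 for AGe antisense and from -0.51 (without sMf replicate 2) to 1.53 for promoter sense. The sMf to rMf difference of promoter antisense ran from -0.18 to 0.45, negative without rMf replicate 3, sMf replicate 2 or sMf replicate 3. AGe sense of Wt against Ctr//AGe ran from -0.20 to 0.022 (positive without Wt replicate 2), AGe antisense of sMf against Ctr//AGe from -0.36 to 0.042 and the pooled antisense share from -1.97 to 0.363 points (both positive without Ctr//AGe replicate 1). The rMf to Wt AGe sense difference against hdp1-1 ran from -0.27 to 0.081, positive without AGP//AGe Wt replicate 3 or hdp1-1 Wt replicate 3. The correlation of promoter antisense with AGe sense ran from -0.333 to 0.102, with promoter sense from -0.145 to 0.521, and with multiply mapped percent from -0.0403 to 0.488. Without sMf replicates 2 and 3, sMf against Wt was log2 -0.070 for AGe antisense, -0.35 for promoter sense and -0.64 for promoter antisense, and sMf against rMf was -1.11 for promoter antisense. Without the libraries of most promoter reads, sMf against Wt was -0.051 for AGe antisense and -0.56 for promoter sense, and sMf against rMf was -0.36 for promoter antisense.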
